A study of Mus musculus with 6 samples.

Results

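The genes that build the zymogen granule and carry out its fusion with the cell surface were followed in cultured mouse acini, the enzyme-secreting units of the exocrine pancreas. A total of 10 genes, Sycn, Zg16, Dmbt1, Rab3d, Rab27b, Vamp2, Vamp8, Stx3, Snap23 and Stxbp2, were taken by gene name from a count table of 56953 genes. Each name matched 1 row, and all 10 were among the 14738 genes abundant enough to be tested. They comprise granule proteins (Sycn, Zg16, Dmbt1), Rab GTPases (Rab3d, Rab27b), membrane fusion proteins of the SNARE class (Vamp2, Vamp8, Stx3, Snap23) and a SNARE partner of the Munc18 family (Stxbp2).

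Acini of wild-type mice (WT) were compared with acini of Dkk3-null mice (DD) and with DD acini given recombinant DKK3 (DD + rDKK3), with 2 bulk RNA-seq libraries per group. All 6 cultures were primary acini embedded in Matrigel and kept in a medium with serum, trypsin inhibitor and dexamethasone, and all were taken at day 3 of an acinar-to-ductal metaplasia (ADM) assay. DKK3 is a secreted glycoprotein of the Dickkopf family. The null allele is carried by every cell of the mouse. The labelled ages were 10 and 11 weeks in WT, 12 and 13 weeks in DD and 14 and 15 weeks in DD + rDKK3, so that, if these labels hold, age and group cannot be told apart. The labelled ages rise by exactly 1 week from library to library. The labels name no animal for any culture. Where 2 libraries of a group came from 1 preparation, the p-values below would cover technical spread only.

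Acinar cells store digestive enzymes in zymogen granules and release them by regulated exocytosis at the apical membrane. Rab GTPases on the granule surface recruit effectors that bring the granule to the membrane. A SNARE of the granule (an R-SNARE, such as VAMP2 or VAMP8) then zips together with SNAREs of the target membrane (Q-SNAREs, such as syntaxins and SNAP-23), and a Munc18 protein guides this pairing. In acini, Rab3D and Rab27B are the known Rabs of mature granules, VAMP8 is the main R-SNARE of regulated secretion, and syntaxin 3 serves the fusion of granules with one another.

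The 150 bases upstream of the start of the canonical transcript are shown for 5 of the genes, in GRCm39 and 5′ to 3′ on the strand of the gene. These starts are from a later annotation than the gene spans deposited with the counts. The Zg16 window lies inside its deposited span (126649328 to 126686500), and those of Sycn and Snap23 do not adjoin the deposited gene start. Sycn, Zg16 and Dmbt1 are shown because their levels are the highest of the set, and Vamp8 and Snap23 because their levels moved together across libraries. The windows are chr7:28240139-28240288 (plus strand) for Sycn, chr7:126651848-126651997 (minus strand) for Zg16, chr7:130633626-130633775 (plus strand) for Dmbt1, chr6:72367687-72367836 (minus strand) for Vamp8 and chr2:120397764-120397913 (plus strand) for Snap23. Capitals mark every match, on either strand, to the E-box CANNTG, to the TATA box TATAAA or to the AP-1 site TGANTCA.
Sycn: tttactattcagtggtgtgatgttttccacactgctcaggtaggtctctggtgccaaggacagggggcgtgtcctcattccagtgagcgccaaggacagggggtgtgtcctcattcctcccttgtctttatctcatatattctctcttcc
Zg16: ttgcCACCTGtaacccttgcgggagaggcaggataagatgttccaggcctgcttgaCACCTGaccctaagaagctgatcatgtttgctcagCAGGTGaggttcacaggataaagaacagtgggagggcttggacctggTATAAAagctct
Dmbt1: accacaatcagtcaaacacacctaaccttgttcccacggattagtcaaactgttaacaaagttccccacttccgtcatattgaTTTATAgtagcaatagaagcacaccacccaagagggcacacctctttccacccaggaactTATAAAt
Vamp8: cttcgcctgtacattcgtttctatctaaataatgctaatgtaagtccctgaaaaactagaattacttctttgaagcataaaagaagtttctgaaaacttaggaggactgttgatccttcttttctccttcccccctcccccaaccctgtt
Snap23: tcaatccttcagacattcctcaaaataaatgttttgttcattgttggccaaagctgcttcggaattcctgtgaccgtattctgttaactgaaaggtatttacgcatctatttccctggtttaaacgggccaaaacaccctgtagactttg

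The same motifs were counted over 250 bases upstream of the canonical start of all 10 genes. CANNTG, the core of the E-boxes read by basic helix-loop-helix factors, lay in this window of 64.8% of 21770 genes, and in 4 of the 10. Zg16 held 4 copies, of which 3 fall in the stretch printed above, Rab27b held 2, and Vamp2 and Stxbp2 held 1 each. TATAAA lay in 11.9% of all windows and was found in Zg16 (1 copy, at -12 bases from the start) and Dmbt1 (2 copies, at -67 and -7). Sycn, also a gene of a granule protein, held none. TGANTCA lay in 6.17% of all windows and in none of the 10. The specific E-box forms CATATG and CAGCTG, in 2.94% and 11.9% of all windows, were also in none of the 10. A match is a stretch of letters, not a bound site, and no binding was measured here.

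Library totals ranged from 12018473 to 19750401 counts. Levels are given as CPM, counts per 1000000 of the library total after TMM scaling, which trims extreme genes before it aligns the libraries. On the first principal component, DD 2 and DD + rDKK3 2 stood apart, and on the second WT 1 did, the library with the lowest total and the highest Sycn, Zg16, Vamp8 and Snap23. DD 2 and DD + rDKK3 2 also held the highest sums of 12 fibroblast and stellate cell markers, 825 and 928 CPM against 46.4 to 167 CPM in the other libraries. Markers of other cells summed to 142 to 323 CPM for macrophages, 73.7 to 126 for endothelium, 160.3 to 296 for islets and 67.0 to 186 for adipocytes, and 12 ductal markers to 4370 to 6251 CPM. All 27 acinar enzymes were detected, at a sum of 180985 to 235687 CPM in WT, 132860 and 153271 CPM in DD and 150734 and 183349 CPM in DD + rDKK3. The targeted gene, Dkk3, had 10 and 1 counts in the WT pair, 11 and 9 in the DD pair and 5 and 5 with rDKK3, so that the groups overlapped. The allele replaces 1 exon, which a gene-level count does not separate from the rest, and the count therefore does not check the labels. WT 2 is labelled female, yet its Y-linked genes summed to 141 CPM, within the 119 to 147 CPM of the 5 libraries labelled male. It also alone held Xist, with 16 counts (1.12 CPM) against 0 in each of the others. The Y-linked level of WT 2 thus did not match its label, and the sex of the animals behind it was not tested. Sex was not a term in the model.

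Among the granule and fusion genes, transcript levels per kilobase of exon differed widely. The length used joins the exons of all basic transcripts of a gene, and can be well above that of the canonical transcript. It is 7541 against 2612 bases for Stx3, 2938 against 820 for Vamp8, 3068 against 1133 for Vamp2 and 6003 against 4756 for Snap23. The order among the fusion genes given below depends on this choice. The granule proteins were the most abundant. Zg16 reached 3345 to 9095 CPM per kb, Dmbt1 2613 to 4004 and Sycn 979 to 1863. In each library Zg16 was above Dmbt1 per kb, and Dmbt1 above Sycn, although the ranges of Zg16 and Dmbt1 over the 6 libraries overlapped. Next came Vamp8 at 56.3 to 90.2, Stxbp2 at 28.6 to 31.996, Rab3d at 17.0 to 22.6 and Snap23 at 9.30 to 15.3 CPM per kb, none of which overlapped its neighbour in this order. Stx3 lay at 6.83 to 7.66 CPM per kb, below Snap23. The lowest were Rab27b, at 2.90 to 3.59, and Vamp2, at 2.79 to 3.37 CPM per kb, and these last ranges overlapped. Granule content and fusion machinery thus differed in message per kb by more than the spread between libraries.

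The proteins of the granule lumen and its inner face were examined first. Sycn (ENSMUSG00000084174.4) encodes syncollin, a small protein attached to the luminal side of the granule membrane, and lies on the plus strand of chromosome 7 from 28240310 to 28241634 in GRCm39. Its canonical transcript has 2 exons and codes for 134 amino acids. Sycn stood at 1075 and 761 CPM in the WT pair, 754 and 565 in the DD pair, and 755 and 571 with rDKK3. WT 1 was far above the other libraries, and both WT values lay above all 4 Dkk3-null values, but WT 2 and the first replicates of the other groups differed by less than 10 CPM. DD differed from WT by a log2 fold change of -0.48 (95% interval -1.07 to 0.12), and treated from untreated DD by 0.0076 (-0.58 to 0.60). Neither passed the quasi-likelihood test of edgeR, with p-values of 0.59 and 1.00 after Benjamini-Hochberg adjustment. Without WT 1 the first of these values was -0.19. The lowest Sycn levels, 565 and 571 CPM, were in the 2 libraries with the highest fibroblast marker sums, and the part of other cells in this was not tested. In bulk RNA, fewer acinar cells and less message per acinar cell cannot be told apart.

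Zg16 (ENSMUSG00000049350.7) encodes zymogen granule protein 16, a lectin that binds glycans at the inner face of the granule membrane. The gene is on the minus strand of chromosome 7, from 126649328 to 126686500 as deposited, and codes for 167 amino acids in a canonical transcript of 4 exons. It stood at 6439 and 4318 CPM in the WT pair, 2369 and 4167 in the DD pair, and 3963 and 3796 with rDKK3. The groups of WT and DD did not overlap, but DD 2 was close to WT 2, and DD 1 alone was far below the others. Against WT, the log2 fold change of Zg16 in DD, -0.72 (SE 0.312, 95% interval -1.44 to 0.0065), was the largest of the 10 genes in any contrast and did not pass the test (adjusted p 0.586, edgeR). Without DD 1 it was -0.34, and without DD 2 it was -1.18. In DD + rDKK3 against DD it was 0.25 (-0.47 to 0.97, adjusted p 1.00), since the treated values lay between those of DD 1 and DD 2. Zg16 had the widest range of the set over the 6 libraries, 2.72-fold from lowest to highest.

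Dmbt1 (ENSMUSG00000047517.14) encodes a large scavenger receptor cysteine-rich glycoprotein, known in mouse pancreas as the granule mucin muclin. Its 47 exons lie on the plus strand of chromosome 7, from 130633776 to 130723357. It stood at 20094 and 19502 CPM in the WT pair, 21675 and 17295 in the DD pair, and 26496 and 24757 with rDKK3, and ranked between 3 and 7 among all genes by count. The treated libraries were both above all others, and WT and DD overlapped. Treated DD differed from untreated DD by a log2 fold change of 0.40 (SE 0.209, 95% interval -0.09 to 0.88) and from WT by 0.37 (-0.11 to 0.86), and DD differed from WT by -0.023 (-0.51 to 0.46). None passed the test, with adjusted p-values of 1.00, 0.388 and 0.973 (edgeR). The first of these stayed positive under all 13 alternative settings, at 0.24 (without DD 2) to 0.54 (without DD 1).

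**Figure D1:**
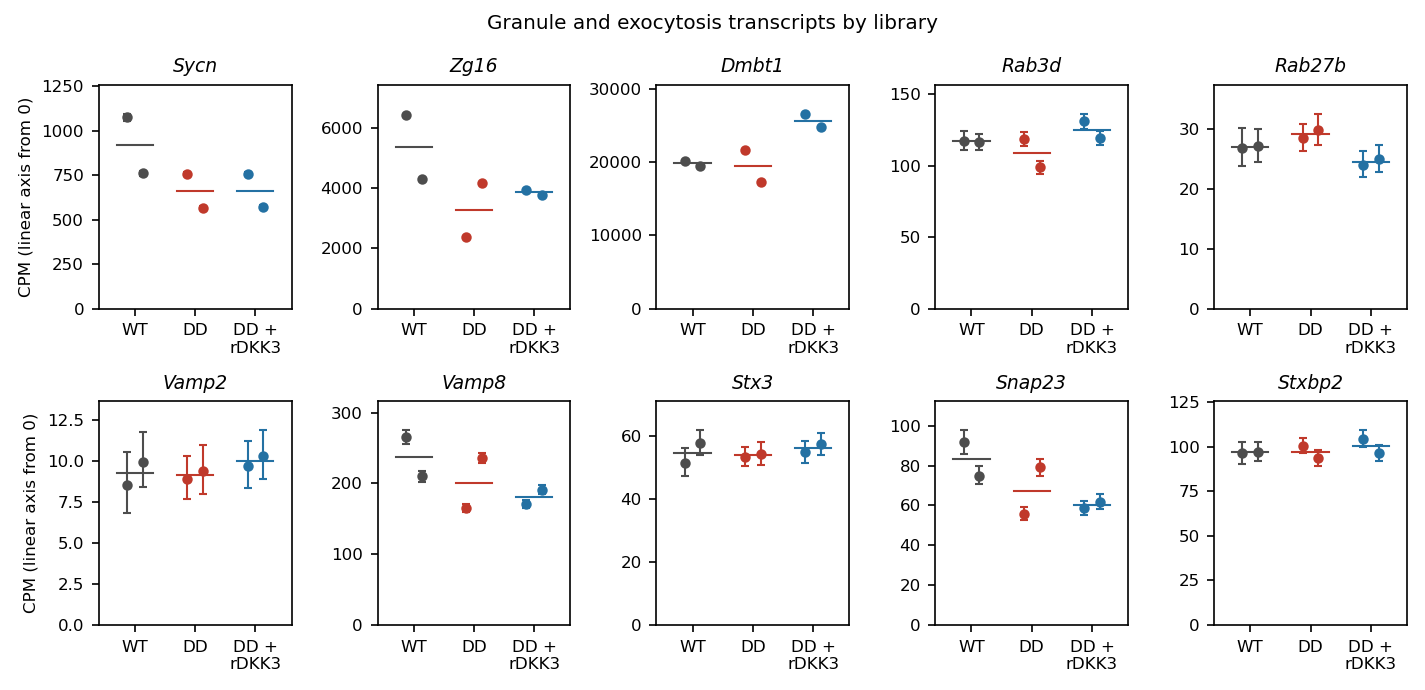
Level of each gene in CPM on a linear axis from 0, by group. Points are the 6 libraries with exact 95% Poisson intervals, which cover counting error only and are often narrower than the point, and lines are the means of the 2 libraries per group. Dmbt1 is highest in both DD + rDKK3 libraries (26496 and 24757 CPM), Sycn and Zg16 are highest in WT 1, and Stx3, Stxbp2 and Vamp2 differ little between libraries.

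The Rab GTPases of the granule surface had narrower ranges. Rab3d (ENSMUSG00000019066.14; chromosome 9, 21818787 to 21829488, minus strand) encodes the Rab3 form of exocrine granules, and stood at 117 and 117 CPM in the WT pair, 119 and 98.7 in the DD pair, and 131 and 119 with rDKK3. DD 2 was the lowest library and DD + rDKK3 1 the highest, and the WT libraries lay within those of DD. With rDKK3 the log2 fold change over DD was 0.20 (95% interval -0.17 to 0.58), and that of DD over WT was -0.11 (-0.48 to 0.27). Both failed the edgeR test (adjusted p 1.00 and 0.81). Without DD 2 the first was 0.079, and without DD 1 it was 0.32.

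Rab27b (ENSMUSG00000024511.16) encodes the second Rab of mature acinar granules, which recruits effectors shared with Rab27a. It stood at 26.8 and 27.1 CPM in the WT pair, 28.4 and 29.8 in the DD pair, and 24.0 and 25.0 with rDKK3. The groups did not overlap in any contrast, although the 95% Poisson intervals of libraries of neighbouring groups overlapped. Loss of DKK3 went with a log2 fold change of 0.11 (95% interval -0.22 to 0.44) and its addition with one of -0.25 (-0.57 to 0.075), with edgeR adjusted p-values of 0.767 and 1.00. Without DD 1 the first was 0.17. Rab3d and Rab27b thus had opposite signs in each contrast, with differences within the error of the fit.

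Of the R-SNAREs, Vamp8 (ENSMUSG00000050732.10; chromosome 6, 72362206 to 72367686, minus strand) encodes endobrevin, and codes for 101 amino acids in 3 exons. It stood at 265 and 210.2 CPM in the WT pair, 165 and 236 in the DD pair, and 171 and 191 with rDKK3. WT 1 and DD 2 were the highest libraries and DD 1 and DD + rDKK3 1 the lowest, so that replicates of DD differed more than group means. Relative to WT, Vamp8 in DD had a log2 fold change of -0.24 (95% interval -0.76 to 0.27, edgeR adjusted p 0.683). For treated DD it was -0.39 (-0.91 to 0.12, adjusted p 0.388) relative to WT, where the groups did not overlap. Without DD 1 the value of DD relative to WT was 0.016, and without WT 1 that of treated DD was -0.20.

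Vamp2 (ENSMUSG00000020894.17; chromosome 11, 68979316 to 68983210, plus strand) encodes synaptobrevin 2, the R-SNARE of synaptic vesicles that is also found on zymogen granules. It stood at 8.55 and 9.97 CPM in the WT pair, 8.94 and 9.41 in the DD pair, and 9.72 and 10.3 with rDKK3. All 6 values were close to one another, and with 87 counts in WT 1 their Poisson intervals overlapped. Vamp2 differed by a log2 fold change of -0.017 (95% interval -0.46 to 0.43) between DD and WT and by 0.13 (-0.31 to 0.56) between treated and untreated DD (edgeR adjusted p 0.977 and 1.00). Without DD 1 the latter was 0.069.

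Of the Q-SNAREs, Snap23 (ENSMUSG00000027287.15; chromosome 2, 120398152 to 120431736, plus strand) encodes the SNAP-25 relative of non-neuronal cells. It stood at 91.7 and 74.9 CPM in the WT pair, 55.8 and 79.1 in the DD pair, and 58.5 and 62.0 with rDKK3. As for Vamp8, WT 1 and DD 2 were high and DD 1 and DD + rDKK3 1 low. Treated DD relative to WT had a log2 fold change of -0.47 (SE 0.203, 95% interval -0.94 to 0.0052), with an unadjusted p of 0.052 and an adjusted p of 0.327 in the edgeR test. In DD against WT it was -0.30 (-0.77 to 0.17), and without DD 1 it was -0.048. Without WT 1 the value of treated DD relative to WT was -0.30. Of its exons, 2179 bases lie opposite exons of Lrrc57, and the counting took strand into account.

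Stx3 (ENSMUSG00000041488.17; chromosome 19, 11752482 to 11796767, minus strand) encodes syntaxin 3. It stood at 51.5 and 57.7 CPM in the WT pair, 53.4 and 54.4 in the DD pair, and 54.8 and 57.5 with rDKK3. The lowest and the highest value were both WT, a 1.12-fold range. DD minus WT was -0.02 on the log2 scale (95% interval -0.35 to 0.31), and treated minus untreated DD was 0.059 (-0.27 to 0.38).

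Stxbp2 (ENSMUSG00000004626.15; chromosome 8, 3680955 to 3693644, plus strand) encodes Munc18b, the Munc18 form of epithelial and exocrine cells that binds syntaxin 3. It stood at 96.4 and 97.4 CPM in the WT pair, 101 and 93.7 in the DD pair, and 105 and 96.7 with rDKK3. The 3 groups overlapped in all contrasts. On the log2 scale, DD minus WT was 0.0034 (95% interval -0.34 to 0.34) and treated minus untreated DD 0.052 (-0.29 to 0.39). For both Stx3 and Stxbp2 the intervals leave room for a difference of up to 0.39 on the log2 scale in either of these contrasts.

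The spread of the 10 genes over the 6 libraries was set beside that of all genes tested, whose median SD of log2 CPM was 0.261. Stxbp2 (0.0557) and Stx3 (0.0632) varied less than most genes, with 0.57% and 0.93% of all genes below them. Vamp2 (SD 0.100), Rab27b (0.115) and Rab3d (0.132) followed, with 5.08%, 7.85% and 11.9% of genes below. Dmbt1 (0.228), Vamp8 (0.267) and Snap23 (0.280) were near the median of all genes. Sycn (0.342) and Zg16 (0.461) lay above it, with 67.1% and 81.9% of genes below. The partner genes Stx3 and Stxbp2, whose proteins bind each other, were thus the steadiest of the set, and the granule lectin Zg16 was the least steady. SD falls with depth of counts, and the genes were not matched on level for this comparison.

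**Figure D2:**
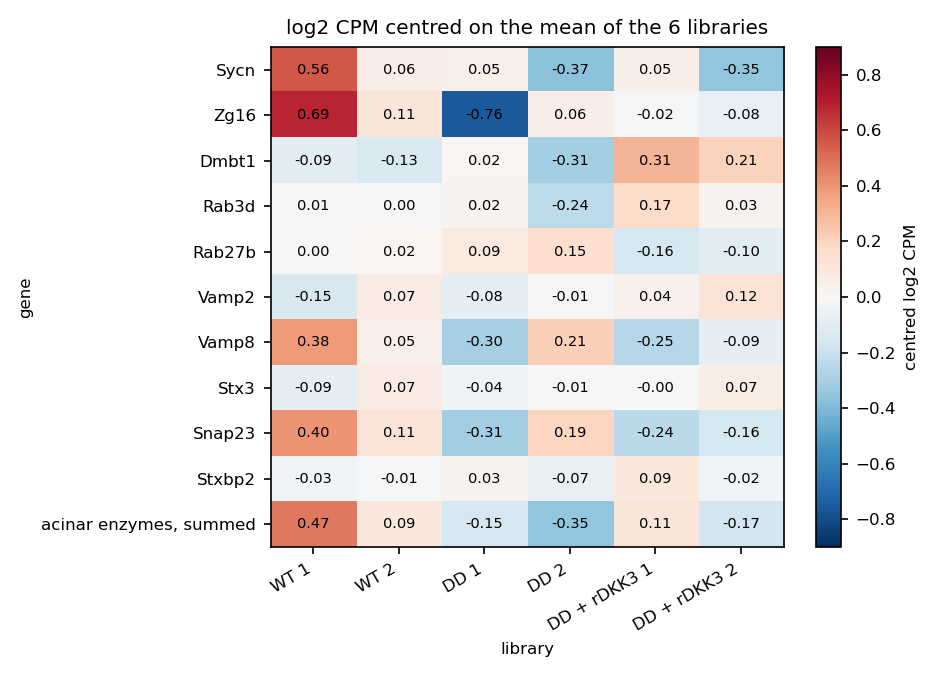
log2 CPM of the 10 genes and of the summed acinar enzymes, each centred on its mean over the 6 libraries (color and printed value, log2 units). Rows are genes and columns are libraries. Vamp8 and Snap23 have the same pattern (0.38 and 0.40 in WT 1, -0.30 and -0.31 in DD 1, 0.21 and 0.19 in DD 2), Sycn resembles the enzyme sum, and Zg16 is lowest in DD 1 (-0.76).

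Vamp8 and Snap23, which encode partners in 1 SNARE complex, kept a near constant ratio, a relation chosen after the values were seen. The CPM ratio of Vamp8 to Snap23 was 2.89 and 2.80 in the WT pair, 2.96 and 2.98 in the DD pair, and 2.92 and 3.08 with rDKK3. It ranged 1.10-fold, whereas Vamp8 itself ranged 1.60-fold and Snap23 1.64-fold. The ratio of the R-SNAREs Vamp8 and Vamp2 ranged 1.77-fold, and that of Dmbt1 to Zg16 2.93-fold. No test was made of this pattern, since 1 such pair can be found among many.

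Sycn followed the sum of the acinar enzymes, though not single enzymes, more closely than did the other granule genes. Per 1000 CPM of the 27 summed enzymes, Sycn made up 4.56 and 4.20 CPM in the WT pair, 4.92 and 4.25 in the DD pair, and 4.12 and 3.79 with rDKK3, a 1.30-fold range against 1.90-fold in CPM. Dmbt1 made up 85.3 and 108 CPM in the WT pair, 141 and 130.2 in the DD pair, and 145 and 164 with rDKK3, with no overlap between the groups. Zg16 made up 27.3 and 23.9 CPM in the WT pair, 15.5 and 31.4 in the DD pair, and 21.6 and 25.2 with rDKK3, and all groups overlapped. On this scale, 6 of the 10 genes did not overlap between DD and WT, all higher in DD, against 63.8% of all genes tested. In DD + rDKK3 against DD it was 4 of 10, against 36.2%, and in DD + rDKK3 against WT 4 of 10, against 49.2%. A transcript of even CPM gains on an enzyme sum that was lower in DD, and the shares of the 10 genes were near those of all genes. An exact two-sided permutation test of 2 libraries against 2 cannot give a p below 0.333, and none was made.

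**Figure D3:**
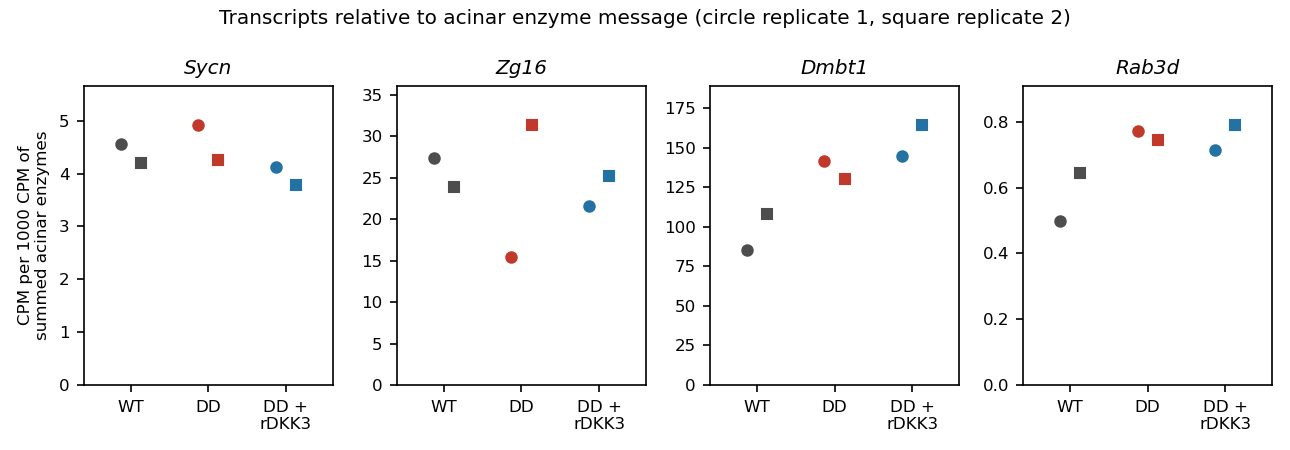
CPM of 4 granule genes per 1000 CPM of the 27 acinar enzymes summed in the same library, on linear axes from 0, by group. Circles are replicate 1 and squares replicate 2. Sycn stays between 3.79 and 4.92, Dmbt1 lies between 85.3 and 108 in WT and from 130.2 to 164 in the other libraries, and Zg16 has its lowest (15.5) and highest (31.4) value in DD.

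The comparison of DD with WT addressed what loss of DKK3 does to this machinery. No gene of the 10 was called at an adjusted p under 0.05 by edgeR, against 6 of all 14738 genes (0.0407%). None had an unadjusted p under 0.05, where 8.26% of all genes did. DESeq2 called none of the 10, against 80 of all genes (0.543%), and limma-voom none, against 8 (0.0543%). By sign, 2 genes were higher in DD (Rab27b and Stxbp2) and 8 lower, with a median log2 fold change of -0.065 beside 0.016 over all genes. Of all genes, 51.7% were higher in DD. Sycn and Zg16 were lower and Rab27b higher in DD without overlap of the libraries. This is 3 of 10, beside 37.8% of all genes tested. The smallest adjusted p was 0.586, for Zg16.

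Adding rDKK3 to DD acini asked whether the protein restores their transcripts. Here edgeR called 0 of the 10 genes and 0 of 14738 (0.0%), with 0 of 10 and 1.98% of all genes at an unadjusted p under 0.05. DESeq2 called 5 of all genes (0.0339%) and limma-voom 0 (0.0%), none of them among the 10. By sign, 7 genes were higher with rDKK3 and 3 (Rab27b, Vamp8 and Snap23) lower, with a median log2 fold change of 0.056 beside -0.0028 over all genes. Of all genes, 49.5% were higher with rDKK3. The libraries did not overlap for 5 of 10 genes, beside 29.5% of all genes tested. These were Dmbt1, Rab3d, Vamp2 and Stx3, higher with rDKK3, and Rab27b, lower. For Rab3d, Rab27b, Vamp2 and Stx3 the 95% Poisson intervals of the nearest libraries overlapped.

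Treated DD acini were also set against WT, a contrast that shares the WT libraries with the first and the treated libraries with the second. None of the 10 was called by edgeR, against 7 of 14738 genes (0.0475%), and none had an unadjusted p under 0.05, where 15.3% of all genes did. DESeq2 called none of the 10, against 74 of all genes (0.502%), and limma-voom none, against 3 (0.0204%). DESeq2 gave no adjusted p for Rab27b and Vamp2 in this contrast, so these could not be called by it. Signs were even, 5 higher and 5 lower, where 51.6% of all genes were higher. The median log2 fold change was -0.05 beside 0.017 over all genes. The libraries did not overlap for 7 of 10 genes, beside 55.0% of all genes. Dmbt1 and Rab3d were higher with rDKK3 than in WT, and Sycn, Zg16, Rab27b, Vamp8 and Snap23 lower. The smallest adjusted p was 0.327, for Snap23.

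**Figure D4:**
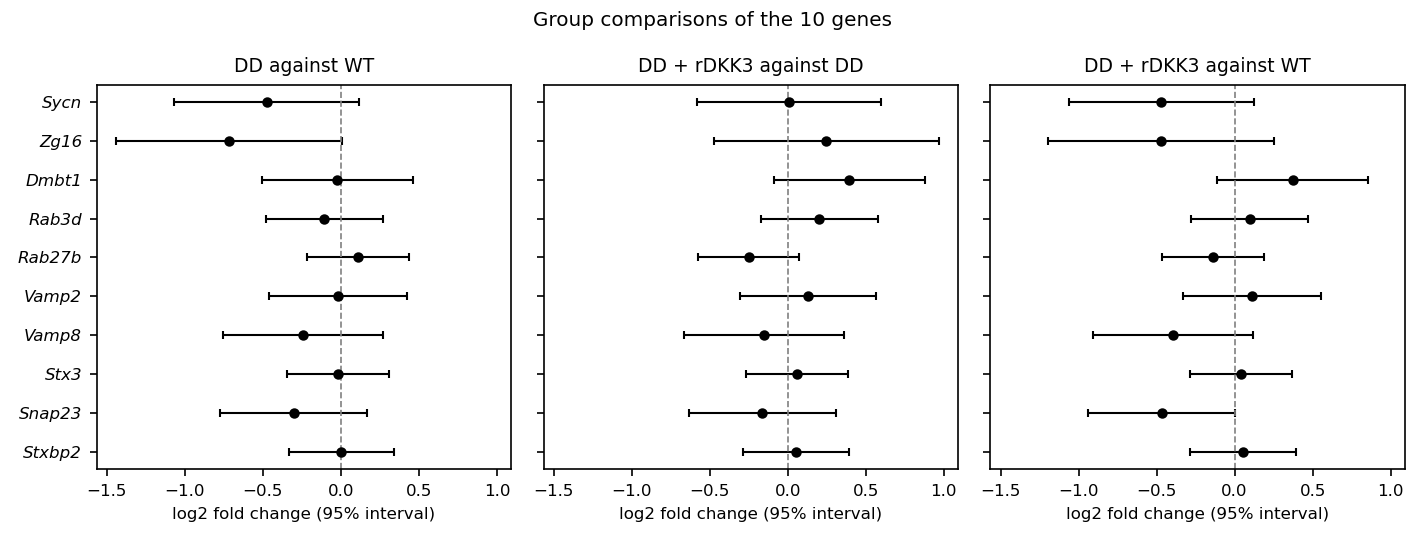
log2 fold change of the 10 genes in the 3 contrasts, from the edgeR quasi-likelihood fit of 6 libraries, with 95% intervals. The dashed line marks no difference. Every interval crosses it, with Zg16 in DD against WT (-1.44 to 0.0065) and Snap23 in DD + rDKK3 against WT (-0.94 to 0.0052) closest to leaving it.

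Each gene was then placed within its family, per kb of exon. The length is that of the joined exons of all basic transcripts, and close orders depend on it. Of the Rab3 genes, Rab3d made up 79.5% to 87.4% of the family message, 3.92 to 7.02 times Rab3a, the neuronal form. Rab3b and Rab3c lay below the expression filter. Of the Rab27 pair, Rab27a, the form of melanosomes and lytic granules, was above Rab27b per kb in every library, by 1.68 to 2.41 times. Before division by length, Rab27b had more counts in the WT and DD libraries and Rab27a in those with rDKK3.

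Of the VAMP genes in the table, Vamp8 was the most abundant in all 6 libraries, 1.52 to 1.88 times Vamp3, the R-SNARE of recycling endosomes. Vamp2 lay well below both. Vamp7 had no row of that name in the count table, so its place in the family is not known. Of the Munc18 genes, Stxbp2 made up 81.1% to 84.1%, and was 5.13 to 5.97 times Stxbp3. Among the family genes that were counted, Rab3d, Vamp8 and Stxbp2 were thus highest per kb in each library, whatever its group. Rab27b was not.

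In the Q-SNARE families no gene could be placed firmly first. Stx4a, the syntaxin of the basolateral membrane, was above Stx3 by 2.37 to 2.85 times per kb in all 6 libraries. In counts, however, Stx3 was the higher in each library, as in WT 1 (524 against 298). The order per kb thus came from the joined exon lengths, 7541 bases for Stx3 and 1575 for Stx4a. The canonical Stx3 transcript has 2612 bases, so no firm order of the 2 genes is drawn. Snap29, a SNAP-25 relative of internal membranes, was above Snap23 in 4 libraries, by 1.10 to 1.49 times. Snap23 was the higher in WT 1 and DD 2, by 1.18 and 1.09 times. The order of Snap23 and Snap29 thus differed between replicates of WT and of DD, and Snap25, the neuronal form, lay below the filter.

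**Figure D5:**
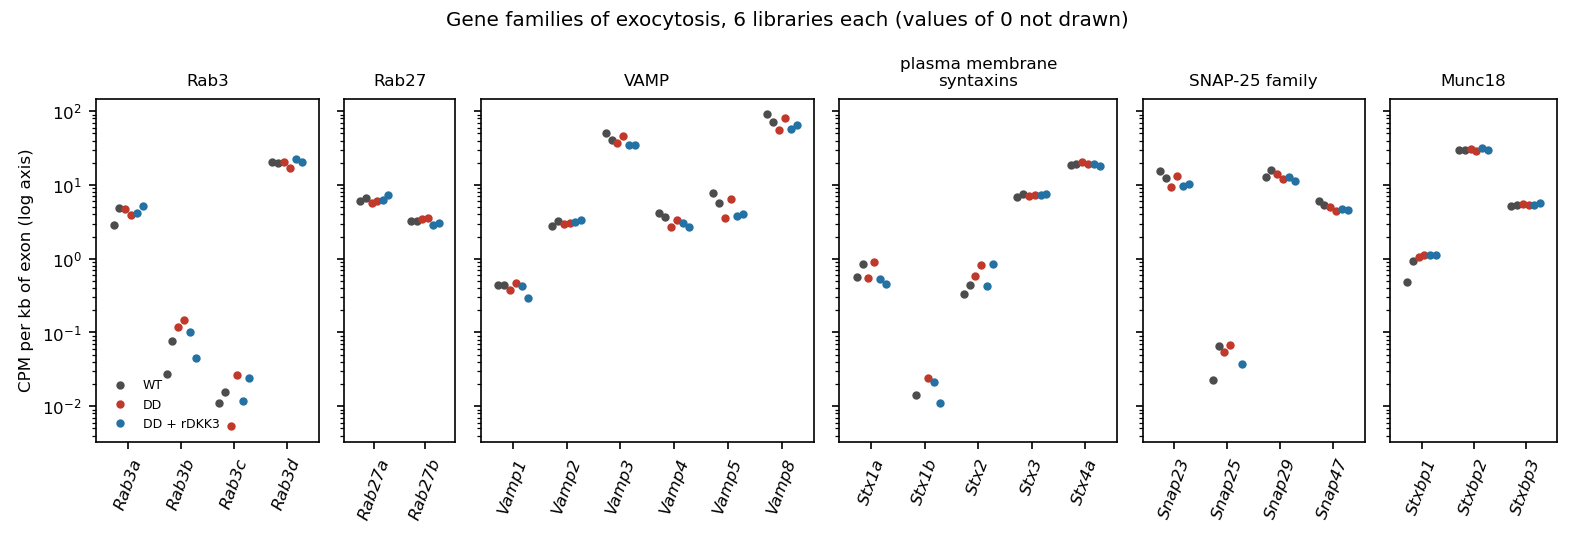
Message of 6 gene families of exocytosis in CPM per kb of exon, on a log axis, with 1 point per library colored by group and values of 0 not drawn. Exon length is that of the joined exons of all basic transcripts, and close orders depend on it. Among the family genes that were counted, Rab3d, Vamp8 and Stxbp2 are highest in every library. Rab27a lies above Rab27b per kb, and Snap23 and Snap29 exchange places. Stx4a lies above Stx3 per kb, but Stx3 has more counts in each library, so no firm order is drawn.

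Beyond the 10 genes, 7 lists of other granule and exocytosis genes held 104 names, of which 102 were in the table and 93 could be tested. No gene of the 93 was called by edgeR in any contrast. At an unadjusted p under 0.05 there were 7 of 93 in DD against WT (7.53%, beside 8.26% of all genes), 1 in DD + rDKK3 against DD (1.08%, beside 1.98%) and 15 in DD + rDKK3 against WT (16.1%, beside 15.3%). The shares were near those of all genes. By list, 7 of 9 exocyst genes were higher in DD than in WT, with a median log2 fold change of 0.097. The 6 other R-SNAREs that were tested had a median of -0.19 in DD + rDKK3 against DD, with all signs negative. Of the R-SNAREs among the 10 genes, Vamp8 was negative as well (-0.15) and Vamp2 was positive (0.13). Of 19 other Q-SNAREs, 3 were higher and 16 lower in DD + rDKK3 against DD, with a median of -0.087. Over all genes, 49.5% were higher in this contrast. These lists were singled out from 7 by their uneven signs, with no test. Among the granule membrane and content genes, 3 were higher and 7 lower in DD against WT, with a median of -0.31.

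The genes with the smallest p-values in these lists are named with their values, and none was called by the edgeR test with adjustment over all genes. Sytl2, a Rab27 effector, had 3.24 and 2.74 CPM in the WT pair, 11.9 and 39.4 in the DD pair, and 7.39 and 24.1 with rDKK3. It was highest in DD 2 and DD + rDKK3 2, the libraries with the highest fibroblast marker sums, and the part of other cells was not tested. DD exceeded WT by a log2 fold change of 3.10 (SE 0.724, edgeR adjusted p 0.525). Unc13b, a Munc13 priming factor, had 33.1 and 42.0 CPM in the WT pair, 59.0 and 51.4 in the DD pair, and 58.4 and 63.6 with rDKK3. Both Dkk3-null groups lay above WT, with log2 fold changes of 0.55 in DD (adjusted p 0.586) and 0.70 in DD + rDKK3 (adjusted p 0.321). Myo5b, an unconventional myosin, was at 0.56 in DD against WT (adjusted p 0.586). Myo5c, another, was at 0.79 in DD + rDKK3 against WT (adjusted p 0.321).

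On the lower side, Rab26, a small GTPase of secretory granules, had 4.62 and 3.79 CPM in the WT pair, 2.27 and 1.29 in the DD pair, and 2.69 and 1.94 with rDKK3. DD relative to WT gave a log2 fold change of -1.22 (SE 0.377, edgeR adjusted p 0.586), and all Dkk3-null libraries lay below both WT libraries. Cuzd1, a protein of the granule membrane, had 3273 and 2052 CPM in the WT pair, 1393 and 1669 in the DD pair, and 2115 and 1975 with rDKK3. Cuzd1 stood at a log2 fold change of -0.80 between DD and WT (adjusted p 0.586) and of 0.42 between treated and untreated DD (adjusted p 1.00), so the treated values lay between those of the other groups or within WT. Vamp4, an R-SNARE of the trans-Golgi network, was at -0.37 in DD against WT (adjusted p 0.586).

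With rDKK3, Muc1, a mucin of the apical membrane, had 262 and 281 CPM against 210.2 and 211 in DD, at a log2 fold change of 0.37 (95% interval -0.028 to 0.76). Rab3gap2, a regulator of Rab3, stood at 0.33 (-0.10 to 0.76). Unc13d, a Munc13 relative that binds Rab27, had 1.00 and 0.861 CPM against 1.94 and 2.23 in DD, at -1.15 (-1.98 to -0.33). Its unadjusted p was 0.0127 and its edgeR adjusted p 1.00. Vps45, an endosomal Munc18 relative, stood at -0.32 and Tff2, a trefoil peptide, at -0.45, both with an adjusted p of 1.00. In DD + rDKK3 against WT, Vamp5 stood at -0.79 and Vti1b, an endosomal Q-SNARE, at -0.50 (adjusted p 0.321 for both). These genes are named for the small size of their p-values. None was called by edgeR as fitted here, whereas Unc13b was called by DESeq2 in DD + rDKK3 against WT, and calls of Sytl2, Unc13b and Myo5c appeared with no low-count filter.

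For Sycn, Zg16, Dmbt1 and Rab3d, the genes of most similar profile were sought among the other 14737 genes tested, by the root mean square (RMS) difference of centred log2 CPM over the 6 libraries. For Zg16 these were Cela2a (0.0921), Triqk, Pdia2, Ccdc85a and Reg1 (0.111). Cela2a encodes a pancreatic elastase, Pdia2 a pancreatic protein disulfide isomerase and Reg1 a secreted acinar lectin. For Sycn they were Rnf114 (0.0563), Atp6v1g2, Cldn4, Grhpr and Antkmt (0.0736), of which none is a digestive enzyme. For Dmbt1 they were Klf9 (0.0282), Rgma, Tox, Foxn3 and Clstn1 (0.0477), and for Rab3d they were Hectd3 (0.0159), Slc8b1, Mbtd1, Pdk4 and Nr1h2 (0.033). Genes of low spread have close neighbours in any case, and these likenesses rest on 6 libraries.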

How the data were processed

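Per the labels and methods, RNA was made into strand-specific paired-end libraries, and reads were aligned with STAR 2.7.9a to GRCm39 with the basic GENCODE annotation. The authors deposited raw counts per gene and library, with no normalization. Of 57045 rows, 92 spike-in rows (all 0) were left out. From the counts, genes were kept by filterByExpr (minimum count 10, total 15), scaled by TMM and fitted with edgeR 4.0.16 (R 4.3.3) over 6 libraries in 3 groups, without a replicate block, with two-sided quasi-likelihood tests and Benjamini-Hochberg adjustment over 14738 genes. The fit had 3 residual and 4.63 prior degrees of freedom. CPM used TMM-scaled totals, and log2 CPM a prior count of 2. Poisson intervals (95%) come from the count of a single library each, and so cover counting error only. Reads carried no molecular identifiers, and copies made by amplification were not accounted for. Exon lengths (joined exons of all basic transcripts) and starts of canonical transcripts came from the supplied, later GENCODE annotation of the same assembly. Alternatives were DESeq2 1.42.0, limma-voom (limma 3.58.1), other scalings, no filter, a replicate block and each library left out. The procedure was tested on simulated counts, with set changes larger than any found for the 10 genes. That test does not give the power for differences as small as theirs.

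The 10 genes and all lists were chosen with earlier results of these data known. Named besides the 10 were, per contrast, up to 3 listed genes per direction by smallest p, all members of 6 families, and the 5 genes of most similar profile for Sycn, Zg16, Dmbt1 and Rab3d. Protein sequences were not used here, and upstream windows were read from the GRCm39 genome.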

Additional observations from a re-analysis of the deposited data

How the results depend on the processing

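None of the 10 genes was called in any contrast under any of the 13 alternative settings, and 28 of 370 fold changes changed sign, of which 2 were reported at a log2 size of 0.2 or more. Rab27b and Vamp2 had no adjusted p from DESeq2 in DD + rDKK3 against WT. Without TMM, on library totals alone, the median of all genes on the log2 scale was 0.22 for DD and 0.18 for DD + rDKK3, both relative to WT, and that of the 10 genes 0.14 and 0.11. In DD against WT this turned the sign of Dmbt1 (0.19), Rab3d (0.10), Vamp2 (0.18) and Stx3 (0.18), all below the shifted median of all genes. It also turned Sycn in DD + rDKK3 against DD (-0.039) and Rab27b in DD + rDKK3 against WT (0.025). With no low-count filter Dmbt1 (0.031), Vamp2 (0.036) and Stx3 (0.033) turned in DD against WT, and Stxbp2 did with DESeq2 (-0.0021) and with its size factors in edgeR (-0.0023).

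With each library left out in turn, signs in DD against WT were not stable for Dmbt1 (-0.17 to 0.13), Rab3d (-0.22 to 0.0204), Vamp2 (-0.11 to 0.11), Vamp8 (-0.52 to 0.016), Stx3 (-0.084 to 0.072) and Stxbp2 (-0.024 to 0.055). In DD + rDKK3 against DD these were Sycn (-0.22 to 0.21), Zg16 (-0.13 to 0.71), Vamp8 (-0.41 to 0.13), Snap23 (-0.42 to 0.11) and Stxbp2 (-0.0196 to 0.10), and in DD + rDKK3 against WT Stx3 (-0.021 to 0.13) and Stxbp2 (-0.0037 to 0.12). A group left with 1 library was assumed to vary like the others.

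Of the 93 other genes, calls appeared with no filter, 2 in DD against WT (Sytl2 and Myo5a) and 4 in DD + rDKK3 against WT (Unc13b, Sytl2, Myo5c and Stxbp5), and with DESeq2, 1 in DD + rDKK3 against WT (Unc13b). Over all genes, no filter gave 528, 73 and 788 calls in the 3 contrasts, out of 26506 genes tested in that setting. DESeq2 gave 80, 5 and 74, out of 14738. The cause was not tested.

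Treated and untreated DD cultures of 1 number have the stem DD1 or DD2 in common in their titles, but the labels name no shared animal and give different ages, so whether they are paired is not known. Deviations of same-numbered libraries correlated across genes at -0.39 (WT and DD), -0.25 (WT and DD + rDKK3) and 0.65 (DD and DD + rDKK3). With a replicate block the calls over all genes were 7, 0 and 5, and 0 of the 10 genes were called, with Zg16 at -0.73 in DD against WT. In the 4 Dkk3-null libraries alone with the replicate block, 194 genes were called in DD + rDKK3 against DD, 1 of them in the lists (Sytl2, -0.70) and none of the 10.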
